A study of Mus musculus with 4 samples.

Results

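This account covers 10 genes that set calcium entry and membrane potential in T cells. They are the calcium sensors Stim1 and Stim2, the pore genes Orai1, Orai2 and Orai3, the inositol trisphosphate (IP3) receptors Itpr1, Itpr2 and Itpr3, and the potassium channels Kcnn4 and Kcna3. Members were all probe sets whose platform annotation names 1 gene, that gene being on this list. A probe set is a group of short probes read as 1 value. In this way 9 of the 10 genes were measured, by 19 probe sets, among 18193 genes named alone by a probe set. Itpr1 was not analysed here.

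The groups were T cells of KO mice and T cells of wild-type (WT) mice, with 2 arrays each. Which gene the KO lacks is not stated in the labels, nor are strain, age or sex. Naive T cells had been taken from spleen and cultured for 3 days under conditions that induce regulatory T cells (Treg cells), and total RNA was read on single-colour Affymetrix arrays to find genes that differ between the genotypes. The source names number the mice behind each array, and the labels say nothing of pooling or of separate cultures. The p-values therefore cover just the spread among these arrays, part of which may be technical.

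In T cells, engagement of the antigen receptor activates phospholipase C, and the IP3 it makes opens IP3 receptors, which let calcium out of the endoplasmic reticulum. Stim proteins sense the emptied store and open Orai pores in the cell membrane, the calcium release-activated (CRAC) channels. Potassium leaving through Kcna3 (Kv1.3) and Kcnn4 (KCa3.1) keeps the membrane potential negative and so sustains the inflow, and the calcium then acts through calmodulin and calcineurin on the NFAT transcription factors.

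The arrays correlated at r = 0.977 between the KO samples, r = 0.979 between the WT samples and 0.933 to 0.941 across genotypes, over the 27022 probe sets tested, which are not independent replicates. The labelled cell type was checked against its markers. Cd3d, which encodes a CD3 chain of the T cell receptor complex, had signals of 25008 and 21778 in KO cells, against 18632 and 17974 in WT cells. Of 8 tested T cell markers, each by its brightest probe set, 4 were higher and 1 lower in KO cells. The lower one was Foxp3, the Treg lineage factor, with 947 and 1101 in KO cells, against 2177 and 2033 in WT cells. Zap70, among the higher ones, was called higher at 1 of its 3 tested probe sets and lower at another. Markers of other cells also differed with genotype. The summed signal of 13 tested mast cell and basophil markers was 33722 to 48642 on the KO arrays and 1008 to 1562 on the WT arrays, and 11 of them were higher in KO cells. That of 9 monocyte, macrophage and neutrophil markers was 3288 to 5330 in KO cells and 504 to 779.7 in WT cells, with 7 higher. For 2 eosinophil markers it was 2014 to 5408 in KO cells and 17.4 to 45.8 in WT cells, and both were higher. For 6 B and plasma cell markers it was 3682 to 6787 in KO cells and 621 to 1275 in WT cells, with 3 higher, which were Jchain, Iglv1 and Sdc1, genes of immunoglobulin and plasma cells. For 3 NK cell markers it was 34163 to 46284 in KO cells and 2096 to 2475 in WT cells, with 2 higher. These were Gzma and Prf1, while Klre1 was not called. Gzma alone had 43551 and 32626 in KO cells, against 1659 and 2012 in WT cells. The summed signal of 4 CD8 T cell markers was 3790 to 4368 in KO cells and 2211 to 2283 in WT cells, with 2 higher. For 2 erythroid and platelet markers it was 696 to 1119.5 in KO cells and 245 to 368 in WT cells, with 1 higher, and for 3 dendritic cell markers 277 to 305 in KO cells and 143 to 397 in WT cells, with none higher. Pax5, Siglecf, Il5ra, Ccr3, Itgam, Mpo, Ncr1 and Klra8 were among the markers that fell below the filter on low values. That filter lay at a mean signal of about 33.2. The WT means of Prg2, Epx, Cpa3, Fcer1a, Hdc, Cma1, Mcpt4, Ms4a2 and S100a9 were under it. These markers were tested only through their KO signals, which favours calls of higher in the counts above. The part of other cells in the results below was not tested, and in such bulk samples fewer cells of a type and less RNA per cell cannot be told apart.

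The IP3 receptor gene Itpr2 fell in KO cells by 3 of its 6 probe sets, and the pore gene Orai2 fell by 1 of its 2. No other gene of the set passed the test. KO was compared with WT on log2(signal + 16) in limma, and called means an adjusted p (Benjamini-Hochberg over all tested probe sets) under 0.05. Of the 19 probe sets 18 passed the filter on low values, 4 were called lower and 0 higher. The background was 9.17% of all tested probe sets called lower and 7.89% called higher, and 3 of the 4 lower calls belong to Itpr2. At an unadjusted p under 0.05 in limma, 5 more probe sets differed that were not called after adjustment. These were 1 of Itpr2, Stim1, Stim2 and Itpr3 each, all lower, and 1 of Orai1, higher. The share of all tested probe sets under this looser threshold was not counted, so these 5 have no background beside them. Counted by gene, 2 of 8 tested genes had a call at any probe set, and the same 2 by the probe set with the highest mean. With that 1 probe set per gene, 20.3% of all tested genes were called. The median log2 fold change was -0.26 over the 18 probe sets and -0.08 over all tested. Both KO arrays lay below both WT arrays at 10 of the 18, where this held for 35.1% of all probe sets. They lay above them at 2, where this held for 25.1%. Itpr2 alone gives 6 of the 18, so these counts and the median rest on it more than on any other gene. Signals of different probe sets cannot be set against each other, since each binds its target with its own strength, so no order of levels among the genes is given.

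**Figure D1:**
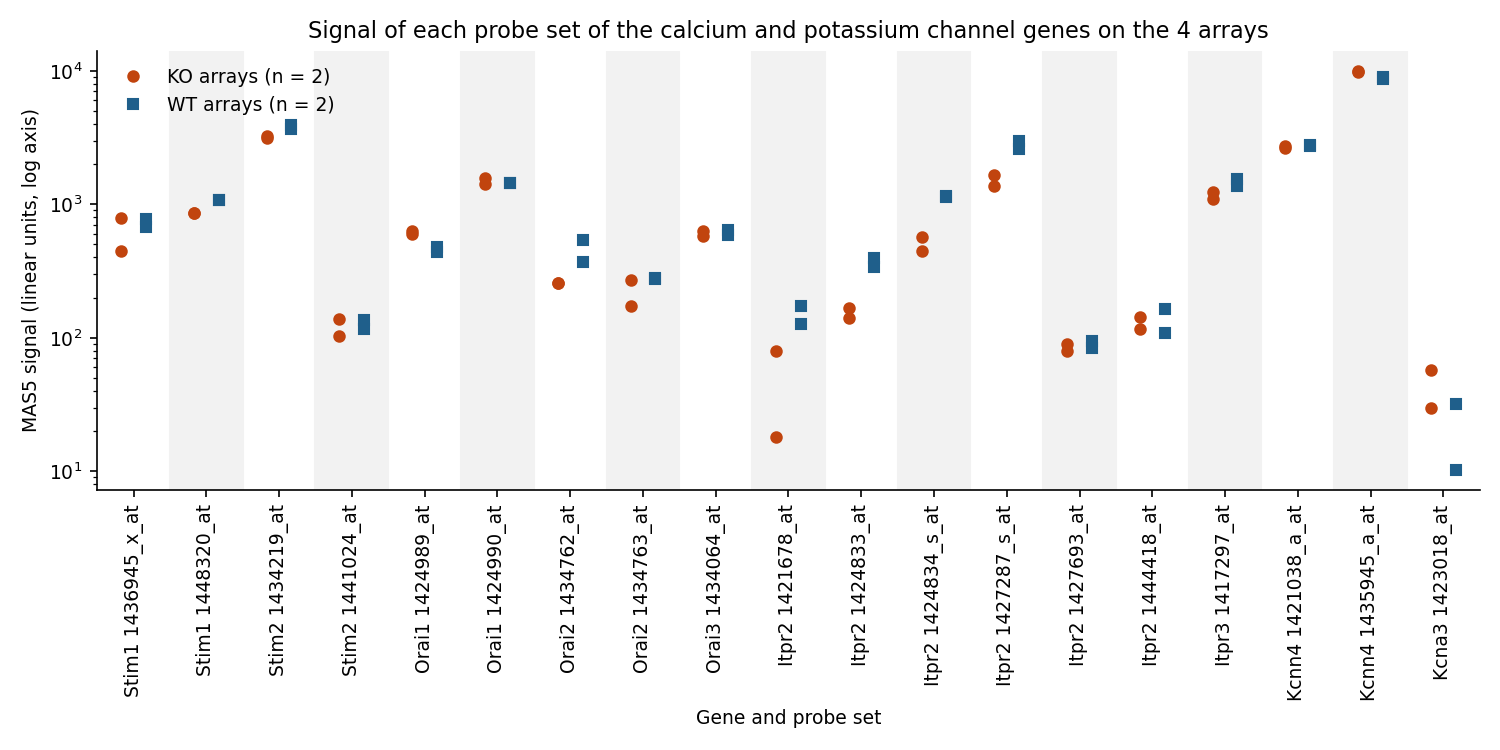
Signal of each of the 19 probe sets on each array (linear MAS5 units, log axis), with the 2 KO arrays as circles and the 2 WT arrays as squares. The KO arrays lie below the WT arrays for 4 of the 6 Itpr2 probe sets, while both Kcnn4 probe sets and Orai3 show arrays of both genotypes close together.

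Itpr2 encodes an IP3 receptor of the endoplasmic reticulum. Probe set 1427287_s_at had signals of 1649 and 1376 on the KO arrays, against 2588 and 2993 on the WT arrays. Every KO value was lower than every WT value, with means of 1513 ± 193 in KO cells and 2790.3 ± 286 in WT cells (SD, n = 2 each), so that WT exceeded KO 1.84-fold. The log2 fold change was -0.88 ± 0.14 (SE; 95% interval -1.19 to -0.57, limma, adjusted p = 0.0033). By 1424834_s_at the signals were 450.1 and 570.4 in KO cells, against 1150.5 and 1133 in WT cells, and the log2 fold change was -1.15 ± 0.16 (limma, adjusted p = 0.00204). These groups lay far apart too, with WT 2.24 times KO by their means. Probe set 1424833_at had 142 and 168 in KO cells, against 339 and 394 in WT cells, at -1.16 ± 0.21 (limma, adjusted p = 0.0079). The differences at these 3 probe sets had overlapping 95% intervals, of -1.51 to -0.78 at 1424834_s_at and -1.65 to -0.67 at 1424833_at.

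The other 3 Itpr2 probe sets were not called. Of these, 1421678_at and 1427693_at were dim enough to drop out with a 60% filter, while 1444418_at passed it. At 1421678_at the signals were 18.2 and 79.8 in KO cells, against 174 and 128 in WT cells, so that the groups did not overlap but the KO arrays differed widely from each other. Its log2 fold change was -1.53 ± 0.48 (95% interval -2.64 to -0.42, limma, adjusted p = 0.0645), and it was -0.79 without KO array 1 (adjusted p = 0.177) and -2.27 without KO array 2 (adjusted p = 0.00598). It was also called under median centring (adjusted p = 0.046) and with a pseudocount of 64 (-0.97, adjusted p = 0.0471). Probe set 1427693_at gave 79.9 and 89.4 in KO cells, against 84.1 and 94.6 in WT cells. Probe set 1444418_at gave 143 and 116 in KO cells, against 109 and 165 in WT cells. At both the groups overlapped, with log2 fold changes of -0.07 (95% interval -0.76 to 0.62) and -0.06 (-0.72 to 0.61). Both intervals end above the log2 fold changes of -0.88, -1.15 and -1.16 at the called probe sets. Which transcript forms each probe set detects was not analysed here.

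The calls at 1427287_s_at, 1424834_s_at and 1424833_at were kept when any 1 array was left out, with log2 fold changes of -1.01 to -0.75, -1.31 to -0.98 and -1.27 to -1.05. With the variance fitted without its dependence on intensity, the first 2 lost the call with the same fold change (adjusted p = 0.0751 and 0.052), and the third kept it. The first 2 are marked _s. With probe sets marked _x, _s or _a left out, 1424833_at was the called Itpr2 probe set (limma, adjusted p = 0.00545).

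The other measured IP3 receptor gene, Itpr3, had signals of 1229.6 and 1095 in KO cells, against 1381 and 1550.5 in WT cells. All KO values were lower, but the difference was not called (log2 fold change -0.33 ± 0.13, 95% interval -0.63 to -0.03, limma, adjusted p = 0.129). The log2 ratio of Itpr2 (1427287_s_at) over Itpr3 within each array was 0.42 and 0.33 in KO cells, against 0.90 and 0.94 in WT cells. Such a ratio shows unequal change of the 2 signals. This and the other ratios were chosen after their values were seen. With 2 arrays a side the smallest exact two-sided permutation p is 0.333.

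Orai2 encodes a pore subunit that in mouse T cells assembles with Orai1 and dampens the current. At 1434762_at its signals were 258 and 256 in KO cells, against 537 and 371 in WT cells. The WT arrays stood well apart from each other, and both were above the KO arrays. The log2 fold change was -0.76 ± 0.22 (95% interval -1.26 to -0.26, limma, adjusted p = 0.0457). Probe set 1434763_at had 172 and 271 in KO cells, against 279.9 and 275 in WT cells, where KO array 2 lay next to the WT arrays, and it was not called (-0.34 ± 0.25, limma, adjusted p = 0.399). The Orai2 call rested on thin margins. It was lost without WT array 1 (log2 fold change -0.50, adjusted p = 0.267), without KO array 1 (adjusted p = 0.0924) or without KO array 2 (adjusted p = 0.0904). It was also lost under quantile normalization (adjusted p = 0.057), under median centring (0.0555), with no filter (0.0847), with a pseudocount of 1 (0.0503) and without the intensity trend (0.132).

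The promoters of Itpr2 and Orai2, the genes with a probe set called lower, and of Orai1, the main CRAC pore gene, are shown. GGAAA is in capitals, the core that NFAT factors bind, since NFAT is the end point of this pathway. Each is the 250 bases before the gene's start, from RefSeq on GRCm38.p6, written 5′ to 3′ on the gene's strand: chr6:146502224-146502473 (minus strand), chr5:136170657-136170906 (minus strand) and chr5:123014824-123015073 (plus strand).
Itpr2: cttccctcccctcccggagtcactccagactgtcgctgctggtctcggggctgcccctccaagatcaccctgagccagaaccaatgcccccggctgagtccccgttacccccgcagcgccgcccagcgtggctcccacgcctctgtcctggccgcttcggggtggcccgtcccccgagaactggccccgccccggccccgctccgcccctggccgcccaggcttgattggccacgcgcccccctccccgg
Orai2: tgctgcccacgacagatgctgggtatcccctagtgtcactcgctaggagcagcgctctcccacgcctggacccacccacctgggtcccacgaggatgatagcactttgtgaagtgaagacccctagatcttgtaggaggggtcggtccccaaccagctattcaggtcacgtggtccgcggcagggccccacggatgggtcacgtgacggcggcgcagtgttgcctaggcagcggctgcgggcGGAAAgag
Orai1: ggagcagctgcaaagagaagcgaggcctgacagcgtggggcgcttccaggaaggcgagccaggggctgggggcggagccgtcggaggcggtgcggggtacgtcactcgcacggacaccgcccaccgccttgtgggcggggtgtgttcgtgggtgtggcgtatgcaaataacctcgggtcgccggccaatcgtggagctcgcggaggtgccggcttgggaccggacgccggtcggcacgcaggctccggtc

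GGAAA was searched for on both strands, so that TTTCC counts as well. The Orai2 window holds it 1 time, at its downstream end, and those of Itpr2 and Orai1 hold none. Of the 9 measured genes 3 hold the letters in this window, namely Orai2, Orai3 and Kcna3, while 55.6% of 32851 mouse promoter windows of the same length do. A match is a description of the letters and not a binding site. The window of Itpr2 is 74.4% G and C, that of Orai2 63.6% and that of Orai1 70.8%.

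Orai1, which forms the pore that carries most CRAC current in T cells, was not called at either probe set. At 1424990_at its signals were 1423 and 1565 in KO cells, against 1454 and 1455 in WT cells, and the groups overlapped. The log2 fold change was 0.04 ± 0.12, with a 95% interval of -0.24 to 0.31, and it was -0.03 without KO array 2. At 1424989_at the signals were 597 and 634 in KO cells, against 476 and 440.2 in WT cells, so both KO arrays were higher (0.41 ± 0.16, 95% interval 0.06 to 0.77, limma, adjusted p = 0.11). The log2 ratio of Orai2 (1434762_at) over Orai1 (1424990_at) was -2.39 and -2.54 in KO cells, against -1.41 and -1.93 in WT cells, without overlap. Its exact permutation p has the same lower limit of 0.333.

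Orai3, a pore gene known in mammals only, had 581 and 627 in KO cells, against 643 and 584 in WT cells. These values interleaved (-0.02 ± 0.15, 95% interval -0.37 to 0.33, limma, adjusted p = 0.944).

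Stim1 is the main sensor of store depletion in T cells. At 1448320_at it had 858 and 859 in KO cells, against 1081 and 1079 in WT cells. Arrays of 1 genotype were almost equal and the KO signals were the lower ones, but the difference was small and was not called (-0.33 ± 0.13, 95% interval -0.62 to -0.03, limma, adjusted p = 0.125). Limma's moderated SE draws on the spread of other probe sets of like signal, and it is wider here than the spread of these 4 values. At 1436945_x_at, a probe set marked as open to cross-hybridisation, the signals were 450.1 and 785 in KO cells, against 679.8 and 770.3 in WT cells. KO array 2 exceeded both WT arrays, and the log2 fold change of -0.28 turned to 0.12 without KO array 1.

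Stim2, a sensor that responds to weaker store depletion, had 3127 and 3257 in KO cells by 1434219_at, against 3646 and 3953 in WT cells. The KO signals were lower without overlap and were not called (-0.25 ± 0.10, 95% interval -0.49 to -0.01, limma, adjusted p = 0.14). The dimmer 1441024_at had 103 and 138 in KO cells, against 135 and 116 in WT cells, with full overlap. The log2 ratio of Stim1 over Stim2 was -1.85 and -1.90 in KO cells, against -1.74 and -1.86 in WT cells, so KO array 1 lay between the WT values and the balance of the sensors was not separated by genotype.

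Kcnn4 encodes the calcium-activated potassium channel that activated T cells use. Its probe set 1435945_a_at had signals of 10018 and 9742 in KO cells, against 8662 and 9020.1 in WT cells. KO signals were higher without overlap, by 1.12-fold, and were not called (0.16 ± 0.09, limma, adjusted p = 0.253). At 1421038_a_at the signals were 2718 and 2632 in KO cells, against 2787 and 2726 in WT cells, with KO slightly lower (-0.04 ± 0.10). The 95% intervals, -0.04 to 0.36 and -0.28 to 0.19, hold no change of the size seen at the called Itpr2 probe sets. The log2 ratio of Itpr2 (1427287_s_at) over Kcnn4 (1435945_a_at) was -2.59 and -2.81 in KO cells, against -1.74 and -1.59 in WT cells.

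Kcna3, a voltage-gated potassium channel gene known best from human T cells, was dim. Its signals of 29.7 and 57.7 in KO cells, against 10.3 and 31.9 in WT cells, overlapped and fell below the filter, so it was not among the tested. Fitted with no filter it was at a log2 fold change of 0.71, with a 95% interval of -0.49 to 1.91 (limma, adjusted p = 0.504). An interval this wide does not separate a rise from no difference.

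**Figure D2:**
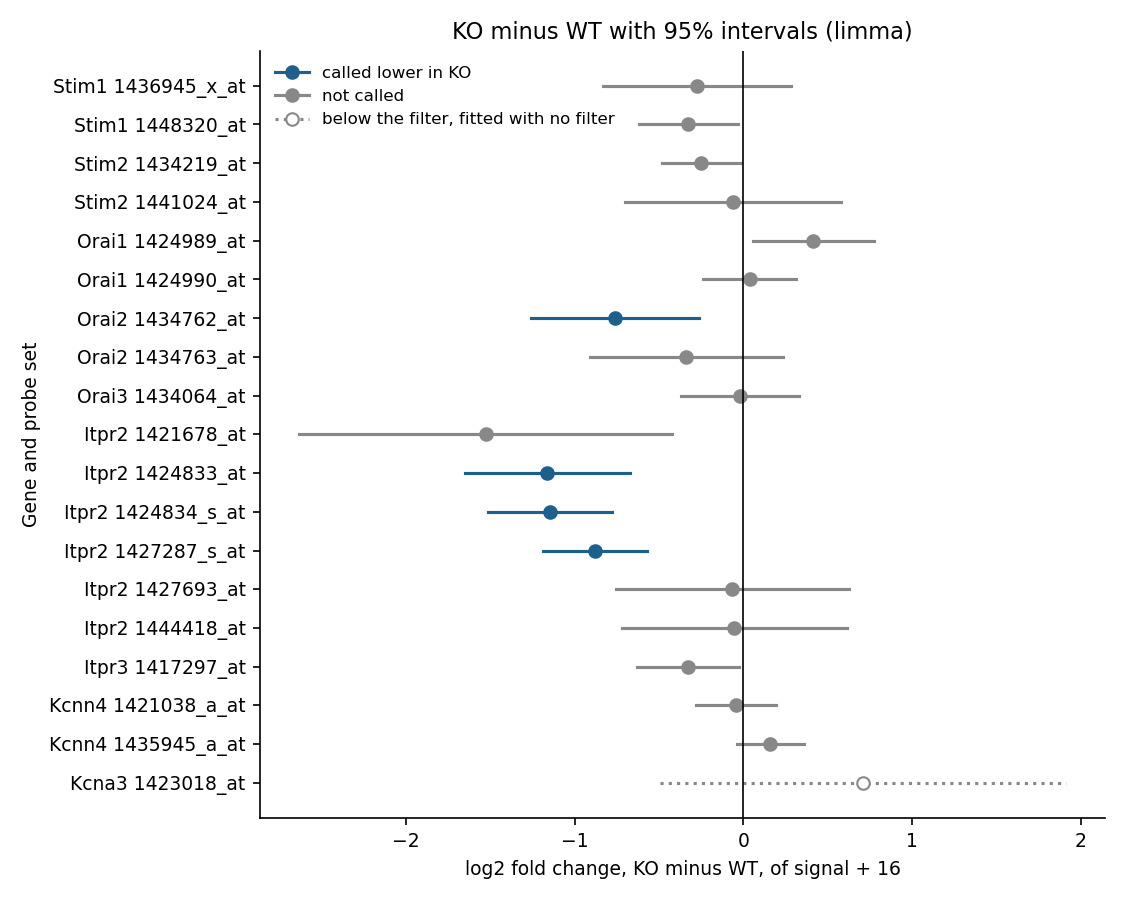
Log2 fold change of signal + 16, KO minus WT, of each probe set with its 95% interval from limma, 2 arrays per genotype. Blue marks the 4 probe sets called lower in KO cells, grey those not called, and the open circle Kcna3 (0.71), which lay below the filter.

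**Figure D3:**
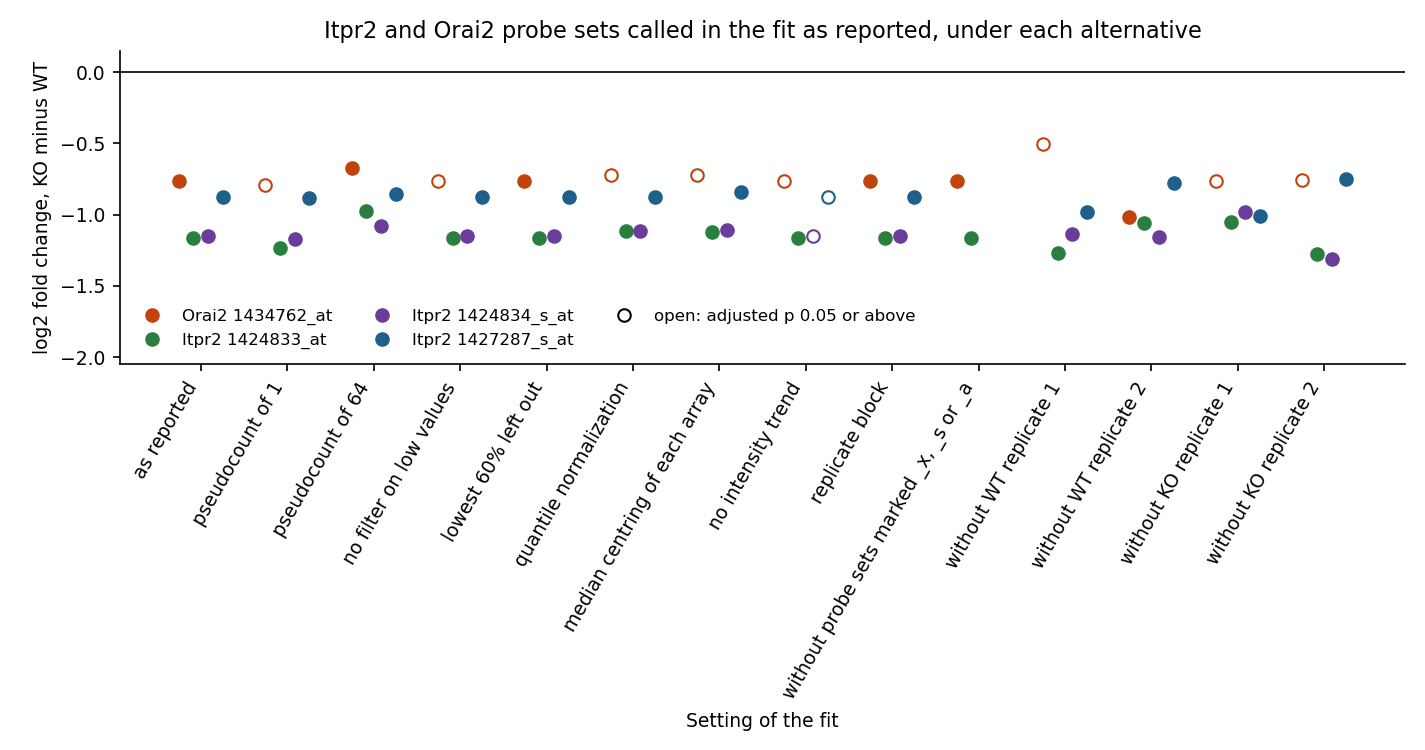
Log2 fold change, KO minus WT, of the 4 called probe sets under each setting of the fit, filled where the adjusted p was under 0.05 and open where it was not. The Itpr2 values stay at -0.75 or below in every setting shown, while Orai2 lies at -0.50 without WT array 1 and is open in 8 settings.

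Other genes of calcium and potassium handling moved in both directions. In 8 lists holding 177 genes, 160 had at least 1 unambiguous probe set and 120 passed the filter, each by its brightest probe set. Of these 14 were higher (11.7%) and 17 lower (14.2%) in KO cells, where the background over 12547 genes was 10.5% higher and 9.87% lower. Their median log2 fold change was -0.02, beside -0.03 over all tested genes. The called genes were not all called at each of their tested probe sets, though none had a call the other way. Homer1 was called at 1 of 4, Ahcyl1 at 1 of 3, Trpm7 at 2 of 4 and Trim27 at 2 of 5. Dyrk2 had 3 of 4, and Ahcyl2, Nedd4l and Atp2b1 had 2 of 3. Mcoln3, Cacna1a, Mcur1, Esyt1, Erp44, Nfatc2ip and Nfatc3 had 1 of 2. The 31 calls became 17 without WT array 1, 18 without WT array 2 and 6 without the intensity trend, so most calls on single genes that follow were lost without it.

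Among genes that make or restrain IP3 signals, the phospholipase gene Plcg2 rose, with signals of 1622 and 1066 in KO cells, against 323 and 612 in WT cells (1.53 ± 0.30, limma, adjusted p = 0.00963). Plcg2 is best known in B cells and myeloid cells. Of the monocyte, macrophage and neutrophil markers 7 of 9 were higher in KO cells, as were 11 of 13 mast cell and basophil markers. Of 6 B and plasma cell markers Jchain, Iglv1 and Sdc1 were higher. Cd79a, Cd79b and Ms4a1 were not called and Pax5 lay below the filter. Their part in the Plcg2 difference was not tested. Plcg1, the form used by the T cell receptor, was at -0.08 ± 0.09 and was not called. Ahcyl2, a relative of the IP3 receptor inhibitor Ahcyl1, fell to 3249 and 3694 in KO cells, against 8103 and 8419 in WT cells (-1.25 ± 0.10, limma, adjusted p = 0.000151). Ahcyl1 fell as well, by 0.36 on the log2 scale, as did Itprip (-0.51) and Lrmp (-0.57), which encode proteins that bind IP3 receptors. The calls of Ahcyl1 (adjusted p = 0.0523 to 0.2) and Itprip (0.0571 to 0.188) were lost without any 1 array, and that of Lrmp without WT array 1, KO array 1 or KO array 2 (0.0591 to 0.226). Grina, of a family of calcium-leak proteins, rose (0.85 ± 0.14), and so did Itpripl2 (1.43 ± 0.23) and the chaperone gene Erp44 (0.53 ± 0.11), whose protein binds IP3 receptors. The Erp44 call was lost without WT array 1 (adjusted p = 0.0573) or WT array 2 (0.0647). Of 20 tested members of this list 4 were higher, 4 lower and 12 not called, at a median of -0.06.

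Of the regulators of store-operated entry, 2 of 11 were higher, none lower and 9 not called, at a median of 0.22. The 2 were Saraf, which promotes closure of the CRAC channel, with 17392 and 14913 in KO cells, against 12104 and 12773 in WT cells, and Esyt1, a tether between the endoplasmic reticulum and the cell membrane, with 4317 and 4410.2 in KO cells, against 3492 and 3181 in WT cells. Their log2 fold changes were 0.37 ± 0.10 and 0.39 ± 0.10 (limma, adjusted p = 0.0361 and 0.0349). The call of Esyt1 was lost without any 1 array (adjusted p = 0.053 to 0.236), and that of Saraf without either WT array or KO array 1 (adjusted p = 0.0598 to 0.194). Pdia3 (0.31 ± 0.10) and Asph (1.01 ± 0.33), a gene that also encodes the store protein junctate, were not called by their brightest probe sets, while 1 of the other Asph probe sets was called higher. Pdia3 (adjusted p = 0.0588) was called with a 60% filter (0.0482), with the replicate block (0.0449) and without KO array 2 (0.0307).

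Downstream of calcium, the NFAT genes split. Nfatc1 fell to 1309 and 1298 in KO cells, against 2462 and 2407 in WT cells (-0.89 ± 0.11, limma, adjusted p = 0.00121). Nfatc2 rose to 4730.1 and 4788 in KO cells, against 2943 and 2756 in WT cells (0.74 ± 0.10, limma, adjusted p = 0.00179). Each was called at 1 probe set, of 5 tested for Nfatc1 and 4 for Nfatc2, with no call in the other direction. Nfatc3 fell by 0.50 on the log2 scale, a call lost without WT array 2 (adjusted p = 0.125). Dyrk2, a kinase that acts on NFAT (-0.92 ± 0.15), and Nfatc2ip, which encodes an NFAT partner (-0.74 ± 0.13), were lower too, and the scaffold gene Homer1 rose (0.83 ± 0.22), a call lost without either WT array or KO array 1 (adjusted p = 0.0931 to 0.153). The calcineurin catalytic subunit genes Ppp3ca (-0.46) and Ppp3cc (0.28) were not called, though Ppp3ca was without KO array 1 (-0.69, adjusted p = 0.0401). Of 26 tested members 2 were higher, 4 lower and 20 not called by their brightest probe sets, at a median of -0.07. Among those not called, Ppp3r1, Rcan3, Camk2d and Csnk1a1 each had 1 other probe set called lower. Without the intensity trend Nfatc1 (adjusted p = 0.052), Nfatc2 (0.0701), Dyrk2 (0.0811) and Nfatc2ip (0.0886) were not called.

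Other channels of the cell membrane and lysosome also went both ways. Mcoln3, a channel of endosomes and lysosomes, fell to 44.6 and 46.4 in KO cells, against 289 and 221 in WT cells (-2.13 ± 0.28, limma, adjusted p = 0.00161). With a pseudocount of 64 the Mcoln3 value was -1.53. Cacna2d2, an auxiliary subunit of voltage-gated calcium channels, fell to 118 and 165 in KO cells, against 444 and 439.6 in WT cells (-1.55 ± 0.22, limma, adjusted p = 0.0024), and Cacna1a, a pore subunit of the same family, fell too (-1.08 ± 0.27), a call lost without WT array 1 (adjusted p = 0.145) or KO array 1 (0.0938). Trpm7, a channel fused to a kinase, fell (-0.57 ± 0.13). Trpm4, which passes sodium and not calcium when calcium rises and so depolarises the cell, rose to 544 and 502 in KO cells, against 302 and 268 in WT cells (0.84 ± 0.18, limma, adjusted p = 0.014). Piezo1, a mechanically gated channel, rose as well (0.53 ± 0.13), a call lost without either WT array or KO array 2 (adjusted p = 0.0817 to 0.103). Of 22 tested members 2 were higher, 4 lower and 16 not called, at a median of -0.13. Without WT array 2 or KO array 1 the calls of Trpm4 (adjusted p = 0.0631 and 0.0543) and Trpm7 (0.0986 and 0.0554) were lost.

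**Figure D4:**
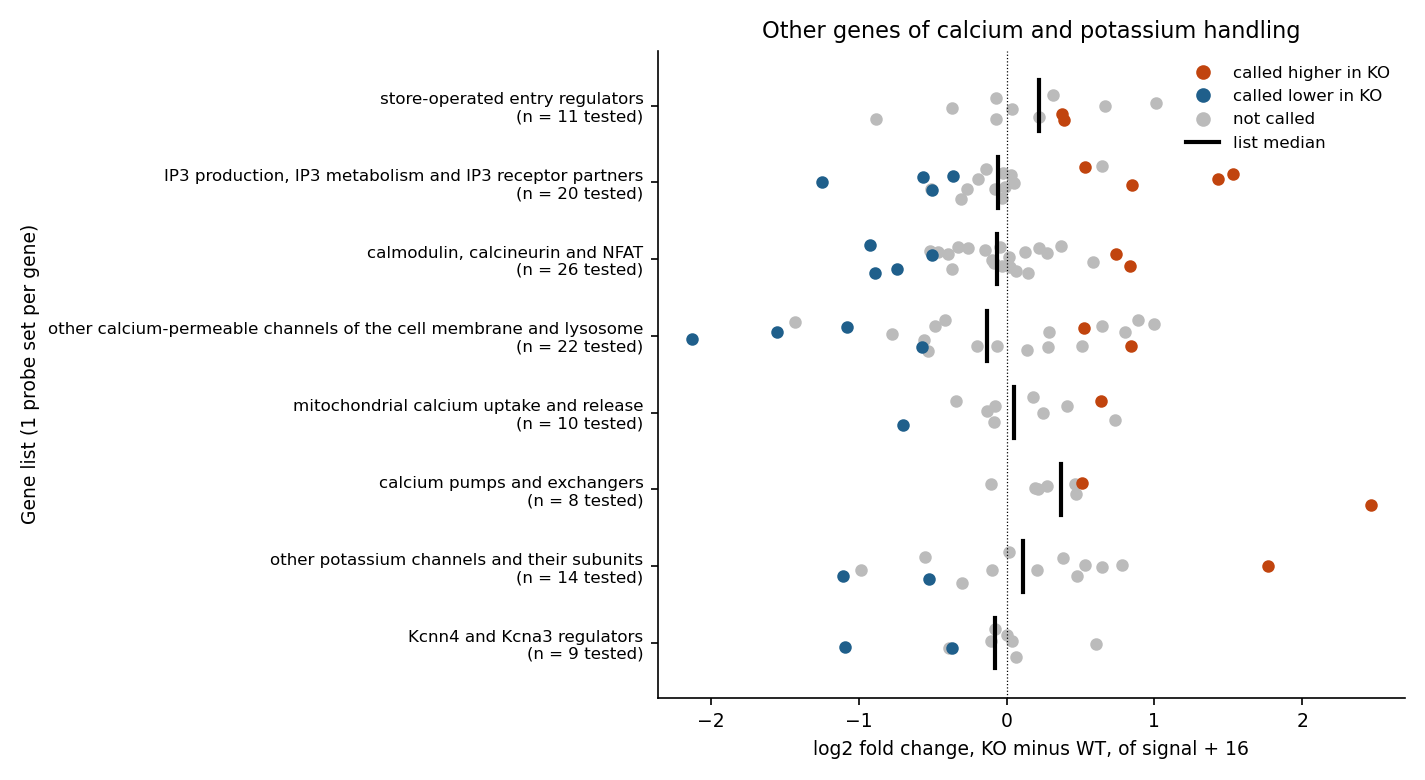
Log2 fold change, KO minus WT, of each tested gene of 8 lists, 1 probe set per gene, with called genes in colour, others in grey and a bar at the list median. The medians lie between -0.13 and 0.37, and most lists hold called genes on both sides of 0.

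Among calcium pumps and exchangers, 2 of 8 were higher and none lower, at a median of 0.37. Slc24a3, an exchanger of sodium for calcium and potassium, was at 164 and 122 in KO cells, against 10.5 and 14.9 in WT cells (2.46 ± 0.38, limma, adjusted p = 0.00335). Both WT signals lay under the filter level, a mean signal of 33.2, so that Slc24a3 was tested only through its KO signals. Its value depends on the pseudocount, at 3.40 with 1 and 1.43 with 64, and gives no firm fold. Atp2b1, a calcium pump of the cell membrane, rose (0.51 ± 0.13), a call lost without either WT array or KO array 1 (adjusted p = 0.0559 to 0.142). Atp2a2, the pump that refills the store, was at 0.27 ± 0.10 and was not called, nor was Atp2c1, a calcium pump of the Golgi (0.47 ± 0.14, adjusted p = 0.055). Atp2c1 was called higher with a 60% filter, under quantile normalization, under median centring, with the replicate block and without probe sets marked _x, _s or _a (adjusted p = 0.042 to 0.0495). In mitochondria, the outer membrane channel gene Vdac1 rose (0.64 ± 0.09, all 4 tested probe sets called), and Mcur1, a regulator of calcium uptake, fell (-0.70 ± 0.13), a call lost without WT array 1 (adjusted p = 0.0509). The uniporter gene Mcu (-0.34), its small subunit gene Smdt1 (0.24 ± 0.11) and its regulator gene Micu3 (0.73 ± 0.29) were not called, so of 10 tested genes of this list 1 was higher, 1 lower and 8 not called, at a median of 0.05.

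Of 14 other tested potassium channel genes 1 was higher, 2 lower and 11 not called, at a median of 0.11. Kcnh2, the mouse counterpart of the human channel gene HERG, fell to 236 and 182 in KO cells, against 453 and 474 in WT cells (-1.10 ± 0.20, limma, adjusted p = 0.00765). Kcnk6, a background potassium channel gene, fell to 566 and 659.8 in KO cells, against 861 and 911 in WT cells (-0.52 ± 0.15, limma, adjusted p = 0.0459). Kcnab3, a cytoplasmic subunit of voltage-gated channels, rose to 101 and 161 in KO cells, against 18.8 and 35.7 in WT cells (1.77 ± 0.39, limma, adjusted p = 0.0184), and was at 1.09 with a pseudocount of 64. The WT mean of Kcnab3, 27.2, lay under the filter level too, and with no filter the call was lost (adjusted p = 0.0611). Kcnk7, of the same family as Kcnk6, was at 0.65 ± 0.20 and was not called (adjusted p = 0.0635), and was called with a 60% filter (0.0499). The call of Kcnk6 was lost without either WT array or KO array 1 (adjusted p = 0.117 to 0.194), and that of Kcnab3 without WT array 1 or KO array 2 (adjusted p = 0.0555 and 0.0937). Of 9 proteins that act on Kcnn4 or Kcna3, the genes of the ubiquitin ligases Nedd4l (-1.09 ± 0.14) and Trim27 (-0.37 ± 0.09) fell and none rose, at a median of -0.08. Dlg1 (-0.39 ± 0.13), a scaffold gene, and Cav1 (0.60 ± 0.36), the caveolin gene, were not called. The Trim27 call was lost without WT array 1 (adjusted p = 0.126) or WT array 2 (0.169).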

How the data were processed

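RNA of KO and WT splenic T cells under Treg induction was measured on 4 arrays, grouped by the genotype in their titles. What the authors deposited is 1 linear intensity per probe set and array. MAS5 is credited to the submitters' processing notes, and its version is not given in the sources used here. The MAS5 method merges matched and mismatched probes into 1 signal, scales arrays to the same trimmed mean and leaves dim signals noisy. The authors' values were not log-transformed. Array medians were 56.3 to 62.5.

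Probe sets were named from the platform annotation, with symbols updated through the RefSeq gene table (GRCm38.p6), and probe sets with several genes gave no names. After removal of 64 control probe sets and of the dimmest 40% by 4-array mean, log2(signal + 16) of 27022 probe sets was fitted in limma 3.58.1 (R 4.3.3; lmFit, eBayes with an intensity trend, two-sided). Each fit had 2 residual and 6.41 prior degrees of freedom. The fit was tested on simulated data whose variances were drawn from its own prior, so that test cannot check the prior itself. The filter lay at a mean signal of about 33.2. A fold on this scale understates changes of dim genes. The number of arrays limits the precision.

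The members, lists and tests were chosen with earlier results of these data known. The rule named all members, the 4 list genes ranked first by p in each list, and called Kcn and Trp genes. Genes named beyond this rule (Plcg1, Ahcyl1, Itprip, Lrmp, Erp44, Nfatc3, Homer1, Ppp3ca, Ppp3cc, Cacna1a, Piezo1, Mcu) were chosen after their values were seen. So were Ppp3r1, Rcan3, Camk2d and Csnk1a1. The T cell markers Cd3d, Foxp3 and Zap70 were chosen likewise. Alternatives were pseudocounts of 1 and 64, no filter or a 60% filter, quantile or median scaling, no trend, a replicate block, leaving out probe sets marked _x, _s or _a, and leaving out each array.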

Additional observations from a re-analysis of the deposited data

How the results depend on the processing

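Across the alternatives, no member probe set was called higher in KO cells, and 3 to 5 were called lower in all settings but 2. Without the intensity trend 1 was called lower (Itpr2 by 1424833_at), 1183 probe sets were called in all and 6 pathway genes. Without probe sets marked _x, _s or _a 2 members were called lower, 2 of the called Itpr2 probe sets being left out by construction. Leaving out 1 array gave 2786 to 4387 calls over all probe sets, 3 to 4 member probe sets called lower, 0 called higher and 17 to 27 pathway genes called. No filter gave 3272 calls, a 60% filter 4473. The sign turned only at member probe sets that were not called. Leaving out 1 array gave -0.67 to 0.12 for Stim1 1436945_x_at, -0.25 to 0.12 for Stim2 1441024_at, -0.031 to 0.10 for Orai1 1424990_at, -0.089 to 0.045 for Orai3, -0.14 to 0.0064 for Itpr2 1427693_at and -0.32 to 0.21 for Itpr2 1444418_at. Quantile normalization gave 0.018 for Stim2 1441024_at and 0.0016 for Orai3, and median centring 0.019 for Orai3. The dimmer Kcnn4 probe set was at -0.043, where the brighter one was at 0.16. The cause was not tested. With the array number as a replicate block 5382 probe sets, 5 members and 34 pathway genes were called, with Itpr2 1421678_at added (adjusted p = 0.0337). The differences between array 1 and array 2 of each genotype correlated at r = 0.01 over 27022 probe sets. Whether samples of the same number share more than that number was not tested. Signals near the filter are limited by the noise of dim MAS5 values.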

Other observations

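Of the 160 list genes with a probe set of their own, 40 lay below the filter on low values. Among them were 20 of 34 potassium channel genes, with no signal above 40.5 in KO cells or 71.3 in WT cells on any array. They include Kcnn1, Kcnn2 and Kcnn3, the small-conductance relatives of Kcnn4, and Kcna2, Kcna4 and Kcna5, relatives of Kcna3. The ryanodine receptor genes Ryr1, Ryr2 and Ryr3, the other release channels of the endoplasmic reticulum, reached at most 39.3, 28.1 and 24.5 in KO cells and 18.9, 19.4 and 30.8 in WT cells. Of the 12 dim genes of other calcium channels, Trpc1, Trpc5 and Trpc6 reached at most 30.3, 42.6 and 14.2 in KO cells and 19.8, 25.2 and 0.569 in WT cells. With no filter 0 of the 40 genes were called in either direction by limma, the smallest adjusted p being 0.0906, for Ryr3. Such signals do not show that a gene is silent, since MAS5 values in this range are noisy.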
